A study of Sus scrofa with 24 samples.

Results

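The proteasome genes described here are the 37 genes on the array whose symbol starts with PSMA, PSMB, PSMC, PSMD, PSME or PSMG, leaving out the immunoproteasome subunits PSMB8, PSMB9 and PSMB10. They were taken from 6765 genes with a probe set that carries a single symbol. Together they have 42 probe sets, and each gene was read by its brightest one, by mean log2 signal over all arrays. The rule used no difference between stages. By role, they are 7 alpha and 7 beta subunits of the 20S core, 5 ATPases and 10 non-ATPase subunits of the 19S regulatory particle, 4 assembly chaperones and 4 activators.

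Messenger RNA of pigs was measured on Affymetrix Porcine Genome arrays, 1 array per animal, which read each transcript with probe sets of short oligonucleotides. All 24 animals were offspring of German Landrace gilts that had received a high protein (HP) diet in gestation. The 4 groups, with 6 animals each, are fetuses at 94 days post conception (94 dpc) and offspring at 1, 28 and 188 days post natum (dpn). Since every group carries the same maternal diet, the comparisons are between ages under that diet and no effect of the diet itself was tested. Each stage was sampled from the litters of 3 gilts, without labels for which animals were siblings from one mother. The p-values take the 6 animals as independent, so they are too small to a degree that cannot be given. With 6 arrays per stage, the number of arrays limits the precision.

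The sources conflict on the tissue: the sample labels name liver and the series title names muscle. The median signal of 21 skeletal muscle genes stood at the 99.3 to 99.8 percentile of all probe sets on the 24 arrays. Creatine kinase CKM, which buffers ATP in muscle, had signals of 26077 to 41113 (median 39572) at 94 dpc, 53813 to 73817 (median 63416) at 1 dpn, 61679 to 79616 (median 66074) at 28 dpn and 51112 to 71736 (median 66719) at 188 dpn. The median of 17 liver plasma protein genes stood at the 22.2 to 98.4 percentile, and albumin (ALB) signal was 132 to 1006 (median 452) at 94 dpc, 111 to 4477 (median 1534) at 1 dpn, 63.6 to 1043 (median 289) at 28 dpn and 80.1 to 56933 (median 6351) at 188 dpn. The muscle markers were thus brighter in rank than the liver markers on every array, against the labelled tissue, and the samples are called by their stage only. No gene of the marker lists was at 0 on any array. Fewer cells of a type and less RNA per cell cannot be told apart in such bulk samples.

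The proteasome degrades proteins tagged with ubiquitin chains. Its barrel-shaped 20S core carries stacked rings of alpha and beta subunits, and the active sites lie inside, on the beta subunits PSMB5, PSMB6 and PSMB7. The 19S particle caps the core: its ring of ATPases (PSMC genes) unfolds and feeds substrates, and its non-ATPase subunits (PSMD genes) bind ubiquitin, remove it and form the lid and scaffold. PSME genes encode alternative caps, and PSMG genes with PSMD5 and PSMD10 encode chaperones that help to build the complex. In skeletal muscle the pathway is known for the turnover of contractile proteins and for its rise in muscle wasting.

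All 37 genes were read well above the array background, a signal of 74.7, on every array, and the lowest value was 295 (PSME3, 94 dpc animal 5). Of the 37, 34 differed over the 4 stages by the limma F test (adjusted p of at most 0.05), as did 52.3% of all 23935 tested probe sets. PSMB2, PSMC6 and PSMG3 were the 3 genes that did not pass. The mean was lowest at 94 dpc for 28 genes. The mean was highest at 188 dpn for 23 genes, at 1 dpn for 9, at 94 dpc for 3 and at 28 dpn for 2. The median of the 37 genes on each array was 2228 to 2749 at 94 dpc, 3618 to 4827 at 1 dpn, 3333 to 3825 at 28 dpn and 4631 to 6131 at 188 dpn. These 4 ranges overlapped only between 1 dpn and its neighbours 28 dpn and 188 dpn.

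**Figure D1:**
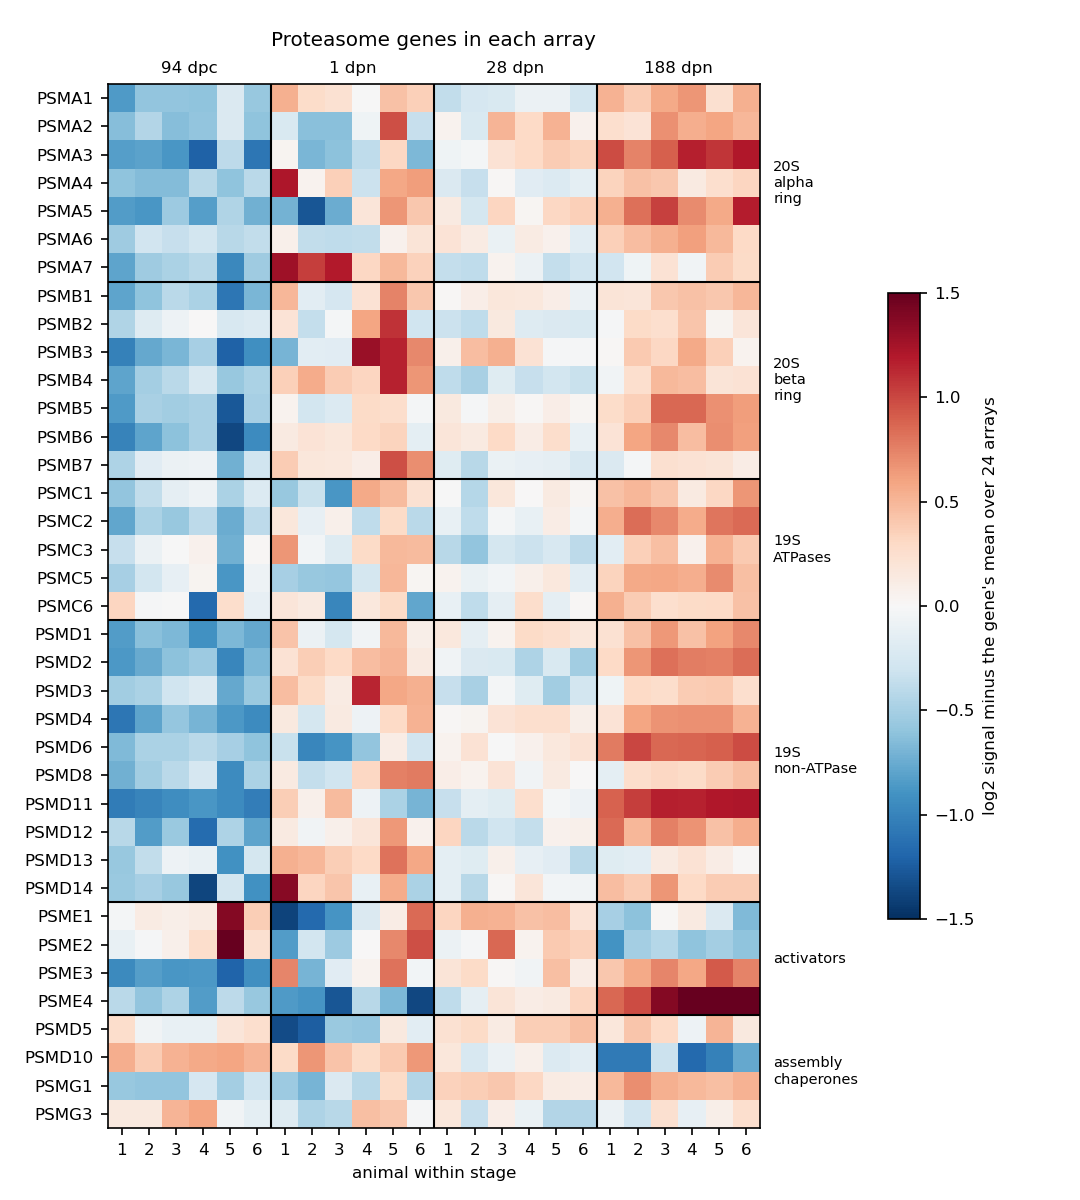
Signal of the 37 proteasome genes (rows, grouped by role) on the 24 arrays (columns, 6 animals per stage), coloured by log2 signal minus the gene's mean over all arrays. Most rows are blue at 94 dpc and red at 188 dpn, while PSMD10 runs the other way and PSME1 and PSME2 are darkest red in animal 5 of 94 dpc.

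Some arrays stand apart and are named beside the results they touch. In animals 1, 2 and 3 of 1 dpn the 5′ signal of the control transcript EF1A was 0.135, 0.105 and 0.0963 of the 3′ signal, against 0.670 to 0.703 in animals 4, 5 and 6. Of the 37 genes, PSMA7 and PSMD11 were higher in all 3 low-5′ arrays than in the other 3 (10.3% of all probe sets were), and 9 were lower in all 3 (10% were). In animals 1, 2 and 3 of 188 dpn ALB stood at 56933, 45919 and 12421, against 123, 80.1 and 281 in animals 4, 5 and 6. In animal 5 of 94 dpc the summed signal of 12 interferon-induced genes was 38388, against 1326 to 6759 in the other 5. That of 7 macrophage and leukocyte genes was 24930 in the same animal, against 2696 to 4040 in the other 5. The part of these differences in the results was not tested.

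At 1 dpn, 22 of the 37 genes were higher than at 94 dpc and PSMD5 was lower, by limma at an adjusted p of at most 0.05 (Benjamini-Hochberg, over every tested probe set). Over all probe sets, 10.1% were called higher and 20.8% lower. The rises took in 6 of 7 beta subunits, 4 of 7 alpha subunits and 9 of 10 non-ATPase subunits, but 2 of 5 ATPases, 1 of 4 activators and no assembly chaperone (none at an unadjusted p under 0.05 either). The largest were PSMA7 (2.63-fold), PSMB3 (2.31-fold), PSMB4 (2.10-fold) and PSMD2 (2.09-fold). Differences are given in log2 ± SE of the fit, with 6 animals per stage. The median difference of the 37 genes was 0.70, beside -0.15 for all tested probe sets. For 16 genes all 6 animals of 1 dpn lay above all 6 of 94 dpc, which held for 5.05% of all probe sets, and for none did all lie below (8.66%).

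The size of this rise depended on the scaling. The median over all tested probe sets was -0.15 as deposited, 0.03 after quantile normalization and 0.17 after centring, in which the array's median is subtracted. Relative to it the median of the 37 genes was 0.86 as deposited, 0.29 after quantile normalization and 0.86 after centring. All 23 called genes kept their sign under either scaling, and 16 of the 22 rises were called again after quantile normalization and 22 after centring, while the fall of PSMD5 was called in neither. The rises not called after quantile normalization were PSMA3, PSMB5, PSMB7, PSMC2, PSMC3 and PSMD8. Of all called probe sets 32.8% were higher at 1 dpn as deposited, 47.7% after quantile normalization and 59.2% after centring. Of all tested probe sets 10.1%, 13.3% and 17.2% were called higher, in the same order. Without the low-5′ arrays 25 genes were higher and none lower, by the same limma test, and the share of all probe sets in that fit is not given.

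Marker lists moved in the same comparison, and their part in the result was not tested. Of 21 skeletal muscle genes 14 were higher at 1 dpn and none lower, and their summed signal was 680560 to 935363 at 1 dpn, against 370697 to 560384 at 94 dpc. Of 13 genes of dividing cells 12 were lower, with summed signals of 2491 to 5615 at 1 dpn and 15213 to 18985 at 94 dpc. Endothelial genes were lower in 6 of 8 cases and none was higher, with summed signals of 4334 to 7765 at 1 dpn and 7989.9 to 14222 at 94 dpc. Genes of fibroblasts and matrix were lower in 3 of 6 cases and none was higher, and their sums overlapped, at 19791 to 56891 at 1 dpn and 51424 to 59816 at 94 dpc. Of the other lists, 2 of 17 liver plasma protein genes, 1 of 5 red cell genes and 1 of 7 macrophage and leukocyte genes were lower, and 1 of 6 fat cell genes was higher.

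At 28 dpn the genes divided relative to 1 dpn: 6 were higher and 10 lower, beside 11.6% and 9.1% of all probe sets. The falls were subunits of the core and the regulatory particle plus PSMD10: PSMA1, PSMA4 and PSMA7, PSMB4 and PSMB7, PSMC3, and PSMD2, PSMD3 and PSMD13. The rises were PSMA3, PSMD6, the activators PSME1 and PSME4 and the chaperones PSMD5 and PSMG1. The median difference was -0.03, beside 0.02 for all tested probe sets. All 6 animals of 28 dpn lay below all 6 of 1 dpn for 9 genes (3.81% of all probe sets) and above for PSME4 alone (5.59%).

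The rises at 28 dpn were mostly lost without the 3 low-5′ arrays of 1 dpn, whereas most falls were not. PSME4 alone was then higher and 10 genes were lower, 8 of them among the 10 falls above, and the median became -0.27. The share of all probe sets called in that fit is not given. The falls gained were PSMB3 (-0.85, adjusted p = 0.00621) and PSMD8 (-0.54, adjusted p = 0.041). Under either other scaling 4 of the 6 rises and all 10 falls were called again. Of all called probe sets 56.0% were higher at 28 dpn as deposited, 52.5% after quantile normalization and 49.5% after centring. Of 13 genes of dividing cells 7 were higher at 28 dpn. Their summed signal was 6402 to 9212 at 28 dpn, against 2491 to 5615 for the animals of 1 dpn. Endothelial genes were higher in 4 of 8 cases, with sums of 7198 to 10765 at 28 dpn and 4334 to 7765 at 1 dpn. Skeletal muscle genes were higher in 7 of 21 cases, and 2 of 6 fibroblast and matrix genes were lower. The part of these lists in the result was not tested.

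At 188 dpn, 14 genes were higher than at 28 dpn and PSMD10 was lower, beside 4.12% and 10.5% of all probe sets. They were PSMA1, PSMA3 and PSMA6, PSMB4 and PSMB5, PSMC2 and PSMC3, PSMD2, PSMD3, PSMD4, PSMD6, PSMD11 and PSMD12, and PSME4. The largest rises were PSME4 (2.60-fold), PSMD11 (2.29-fold), PSMD2 (1.97-fold) and PSMA3 (1.77-fold). The median difference was 0.43, beside -0.18 for all tested probe sets. All 6 animals of 188 dpn lay above all 6 of 28 dpn for 18 genes (4.41% of all probe sets) and below for PSMD10, PSME1 and PSME2 (7.84%).

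Centring each array on its median gave 28 genes higher at 188 dpn than at 28 dpn, beside 8.67% of all tested probe sets. Quantile normalization gave 10, beside 4.75%, leaving out PSMA6, PSMC3, PSMD3 and PSMD4. The median over all tested probe sets was 0.01 after quantile normalization and 0.09 after centring, and relative to it the genes stood at 0.61 as deposited, 0.34 after quantile normalization and 0.61 after centring. Of all called probe sets 28.2% were higher at 188 dpn as deposited, 42.0% after quantile normalization and 62.9% after centring. Without the 3 plasma-protein arrays of 188 dpn 11 genes were higher: PSMA6, PSMD4 and PSMD12 were not past the threshold. The share of all probe sets in that fit is not given. Of the 13 genes of dividing cells 10 were lower at 188 dpn, with summed signals of 2434 to 3460 at 188 dpn and 6402 to 9212 at 28 dpn. Endothelial genes were lower in 5 of 8 cases and fibroblast and matrix genes in 4 of 6, while limma called no skeletal muscle gene (1 of 21 was higher and 1 lower at an unadjusted p under 0.05). The sums at 188 dpn were 3381 to 4640 for endothelium, against 7198 to 10765 at 28 dpn, and 12709 to 20448 for fibroblasts and matrix, against 18714 to 28149 at 28 dpn.

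Over the whole span 29 genes were higher at 188 dpn than at 94 dpc and PSMD10 and PSME2 were lower, beside 12.5% and 27.4% of all probe sets. All 7 alpha subunits and all 10 non-ATPase subunits were higher, with 5 of 7 beta subunits and 4 of 5 ATPases. PSMD11 (4.23-fold), PSME4 (3.90-fold), PSMA3 (3.66-fold) and PSME3 (3.02-fold) rose most. The median difference was 0.99, beside -0.29 for all tested probe sets. The 6 animals of 188 dpn lay above all 6 of 94 dpc for 27 genes (9.58% of all probe sets) and below for 2 (19.5%).

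All 31 of these calls kept their sign under both other scalings. Centring kept all 29 rises and the fall of PSMD10 past the threshold but not that of PSME2, which was -0.39 (adjusted p = 0.31). The median over all tested probe sets was 0.05 after quantile normalization and 0.25 after centring, and relative to it the genes stood at 1.27 as deposited, 0.50 after quantile normalization and 1.27 after centring. After quantile normalization 21 of the 29 rises were called again, and PSMA2, PSMA6, PSMA7, PSMB4, PSMC3, PSMC5, PSMD8 and PSMD13 were not. Of all called probe sets 31.3% were higher at 188 dpn as deposited, 48.9% after quantile normalization and 60.8% after centring. Of all tested probe sets 12.5%, 17.6% and 23.7% were called higher, in the same order. Skeletal muscle genes were higher in 20 of 21 cases, with a summed signal of 863805 to 1153600 at 188 dpn and 370697 to 560384 at 94 dpc, and all 13 genes of dividing cells were lower. Of 8 endothelial genes 7 were lower and 1 higher, with sums of 3381 to 4640 at 188 dpn and 7989.9 to 14222 at 94 dpc. Of 6 fibroblast and matrix genes 5 were lower, with sums of 12709 to 20448 at 188 dpn and 51424 to 59816 at 94 dpc. The part of these lists in the result was not tested.

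**Figure D2:**
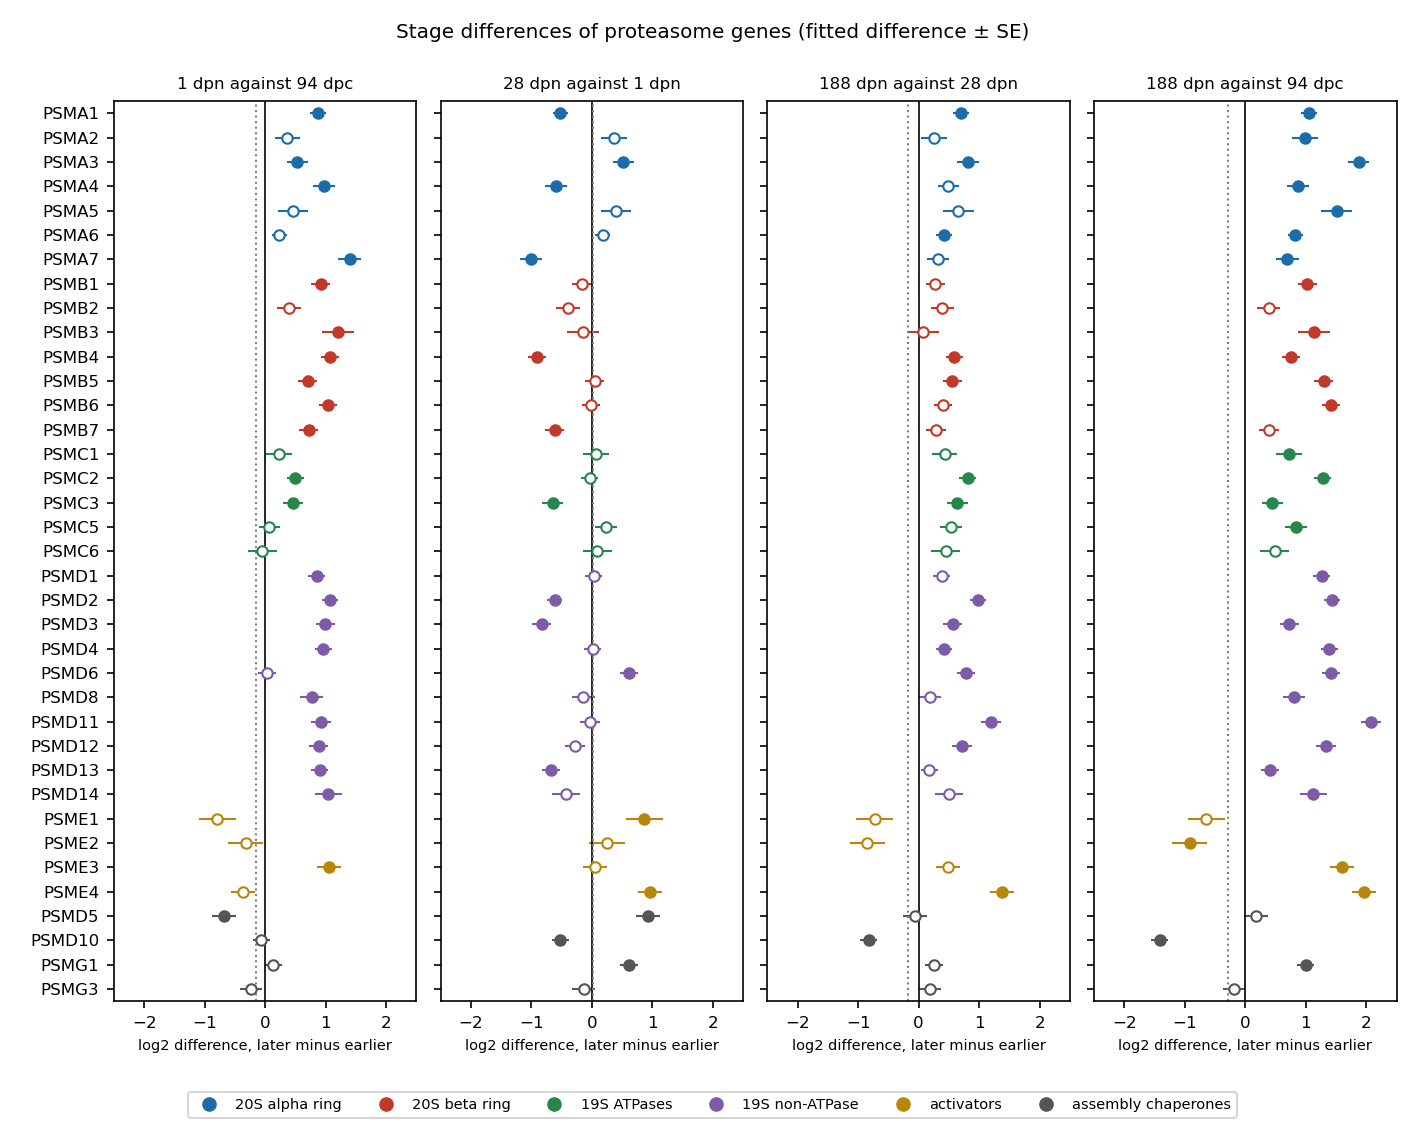
Fitted log2 difference ± SE of each of the 37 genes in the 4 comparisons (later minus earlier stage, n = 6 animals per stage), coloured by role. Filled points passed an adjusted p of 0.05, open points did not, and the dotted line is the median of all tested probe sets, which lies at -0.15 for 1 dpn against 94 dpc and at -0.29 for 188 dpn against 94 dpc.

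The stages formed a few shapes. For 9 genes the signal was higher at 1 dpn than at 94 dpc and then lower at 28 dpn than at 1 dpn: PSMA1, PSMA4, PSMA7, PSMB4, PSMB7, PSMC3, PSMD2, PSMD3 and PSMD13 (3.13% of all probe sets did so). Of these, PSMA1, PSMB4, PSMC3, PSMD2 and PSMD3 were higher again at 188 dpn than at 28 dpn (0.217% of all probe sets). A further description counts 11 genes that were higher at 1 dpn than at 94 dpc and also higher at 188 dpn than at 28 dpn (0.861% of all probe sets).

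The alpha subunits form the outer rings of the core and its gate. PSMA7, the brightest of them, had signals of 10442 to 15286 (median 14161) at 94 dpc, 25345 to 49414 (median 35368) at 1 dpn, 15712 to 21244 (median 16329.9) at 28 dpn and 16737 to 26613 (median 21753) at 188 dpn. Each animal of 1 dpn lay above each of 94 dpc and of 28 dpn, and within 1 dpn animals 1, 2 and 3, the low-5′ arrays, had the highest values (49414, 42081 and 46573, against 25345, 28655 and 26065 in animals 4, 5 and 6). The log2 difference at 1 dpn was 1.39 ± 0.18 (adjusted p = 5.65e-06) against 94 dpc, and at 28 dpn it was -1.01 ± 0.18 (adjusted p = 0.00042) against 1 dpn. Without the low-5′ arrays both stayed past the threshold, at 1.00 (adjusted p = 0.000281) and -0.62 (adjusted p = 0.0218), with adjusted p of 6.71e-08 to 0.0101 over the 26 settings for the rise and 2.35e-05 to 0.0218 over the 26 settings for the fall. At 188 dpn PSMA7 stood 0.70 above 94 dpc in log2 (adjusted p = 0.00364), and this value was 0.04 after quantile normalization.

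PSMA3 was called higher at each step with the deposited scaling, though the first 2 steps depended on the setting. Its signals were 2689.7 to 4767 (median 3471) at 94 dpc, 3879.6 to 7764 (median 4449) at 1 dpn, 6000.1 to 8125 (median 7458) at 28 dpn and 10456 to 14346 (median 12727) at 188 dpn, and all 6 animals of 188 dpn lay above every animal of the other stages. The differences were 0.53 ± 0.18 (adjusted p = 0.0274) at 1 dpn against 94 dpc, 0.52 ± 0.18 (adjusted p = 0.0428) at 28 dpn against 1 dpn and 0.82 ± 0.18 (adjusted p = 0.00298) at 188 dpn against 28 dpn, which gave 1.87 ± 0.18 (adjusted p = 1.92e-08) over the whole span. The first step, 1 dpn against 94 dpc, missed the threshold without any 1 of 1 dpn animals 1 and 5 or 94 dpc animals 4 and 6 (0.40 to 0.49 in log2). The step at 28 dpn missed it without any 1 of 28 dpn animals 3, 4, 5 and 6 or 1 dpn animals 2, 3, 4 and 6 (0.45 to 0.52 in log2). By limma the first step had an adjusted p of at most 0.05 in 20 of the 26 settings (0.000849 to 0.307). The step at 28 dpn had one in 13 of the 26 settings (0.00717 to 0.19).

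The other alpha subunits differed in when they rose. PSMA1 was 0.87 ± 0.13 (adjusted p = 2.02e-05) higher in log2 at 1 dpn than at 94 dpc, fell by 0.52 at 28 dpn and rose by 0.70 at 188 dpn, with no overlap between animals at any of the 3 steps. PSMA4 was 0.98 ± 0.18 (adjusted p = 0.000234) higher at 1 dpn and was lower again at 28 dpn (-0.60, adjusted p = 0.0198). That fall had adjusted p of 0.00172 to 0.122 over the 26 settings, of which 24 were at most 0.05. PSMA2, PSMA5 and PSMA6 were not past the threshold at 1 dpn, with differences of 0.37 ± 0.21 (95% interval -0.08 to 0.81), 0.46 ± 0.25 (95% interval -0.07 to 0.98) and 0.24 ± 0.13 (95% interval -0.03 to 0.50). At 188 dpn all 3 were higher than at 94 dpc, by 0.99, 1.51 and 0.83. In PSMA5 the 3 low-5′ arrays of 1 dpn read 1663, 1116 and 1630, against 3075, 4298 and 3612. Without them its rise at 1 dpn was 1.12 (adjusted p = 0.000166) and that of PSMA2 was 0.71 (adjusted p = 0.0318), with adjusted p of 0.000166 to 0.416 over the 26 settings for PSMA5 and 0.0216 to 0.818 over the 26 settings for PSMA2. PSMA5 also passed at 1 dpn without 1 dpn animal 2 alone (0.67), and PSMA2 at 28 dpn against 1 dpn without 1 dpn animal 5 (0.58). The rise of PSMA6 at 188 dpn against 28 dpn missed the threshold without any 1 of 188 dpn animals 2, 3, 4 and 5 or 28 dpn animals 3 and 6 (0.38 to 0.42 in log2).

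Of the beta subunits, PSMB5, PSMB6 and PSMB7 carry the chymotrypsin-like, caspase-like and trypsin-like active sites. PSMB5 signals were 3765 to 6525 (median 6402) at 94 dpc, 7508 to 11126 (median 9194) at 1 dpn, 8989 to 10088 (median 9510.4) at 28 dpn and 11055 to 16593 (median 14413) at 188 dpn. All animals of 94 dpc lay below all of 1 dpn, and all of 188 dpn above all of 28 dpn, while 28 dpn and 1 dpn overlapped. The difference was 0.70 ± 0.16 (adjusted p = 0.00159) at 1 dpn against 94 dpc, 0.04 ± 0.16 (95% interval -0.28 to 0.37) at 28 dpn against 1 dpn and 0.55 ± 0.16 (adjusted p = 0.0197) at 188 dpn against 28 dpn.

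PSMB6, the brightest beta subunit, followed a like course. It read 4458 to 8173 (median 6309) at 94 dpc, 10364 to 14468 (median 13111) at 1 dpn, 10616 to 14153 (median 12807) at 28 dpn and 13257 to 18973 (median 17426) at 188 dpn. Again 94 dpc lay below all later animals, and its rise was 1.04 ± 0.15 (adjusted p = 1.54e-05) at 1 dpn and 1.42 ± 0.15 (adjusted p = 6.83e-08) by 188 dpn. The last step, 188 dpn against 28 dpn, was 0.40 ± 0.15 (adjusted p = 0.0717). Its adjusted p was 0.0109 to 0.161 over the 26 settings and at most 0.05 in 7, among them the fit without 188 dpn animal 1 (0.47).

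PSMB7 was highest at 1 dpn. Its signals were 5439.6 to 8503 (median 7619) at 94 dpc, 9579 to 17489 (median 10871) at 1 dpn, 6692 to 8364 (median 8009.7) at 28 dpn and 7698 to 10569.9 (median 9978) at 188 dpn, with every animal of 1 dpn above every animal of 94 dpc and of 28 dpn. It rose by 0.72 ± 0.16 (adjusted p = 0.00148) at 1 dpn and was lower at 28 dpn (-0.61, adjusted p = 0.00806). At 188 dpn against 94 dpc the difference was 0.39 ± 0.16 (95% interval 0.06 to 0.72, adjusted p = 0.0547), and it passed without any 1 of 188 dpn animal 1 or 94 dpc animals 3 and 4 (0.43 to 0.45). Its sign was not the same in every setting: it ran at -0.16 to 0.93, with adjusted p of 0.000204 to 0.437 over the 26 settings. No test of one active-site subunit against another was made.

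Among the beta subunits without an active site, PSMB4 was higher at 1 dpn, lower at 28 dpn and higher again at 188 dpn. It read 6183 to 9002 (median 7586) at 94 dpc, 13275 to 23781 (median 14762) at 1 dpn, 7630.1 to 9418 (median 8409) at 28 dpn and 10244 to 14972 (median 12533) at 188 dpn, and the animals of 1 dpn overlapped neither 94 dpc nor 28 dpn. Its differences were 1.07 ± 0.15 (adjusted p = 1.04e-05) at 1 dpn, -0.91 ± 0.15 (adjusted p = 0.000152) at 28 dpn and 0.59 ± 0.15 (adjusted p = 0.00795) at 188 dpn, each against the stage before. PSMB3 rose at 1 dpn by 1.21 ± 0.27 (adjusted p = 0.00132), with 1629 to 6464 (median 3363) at 1 dpn and 1142 to 1876 (median 1469) at 94 dpc. The low-5′ arrays held the 3 lowest values of PSMB3 at 1 dpn (1629, 2373 and 2342). Without them PSMB3 was called lower at 28 dpn than at 1 dpn (-0.85, adjusted p = 0.00621), with adjusted p of 0.00621 to 0.985 over the 26 settings. PSMB1 was higher at 1 dpn (0.91, adjusted p = 0.000158) and at 188 dpn (1.03, adjusted p = 1.78e-05) than at 94 dpc. PSMB2 passed in none of the 4 comparisons, and its largest difference in size was -0.40 ± 0.19 (95% interval -0.80 to 0.00) at 28 dpn against 1 dpn.

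**Figure D3:**
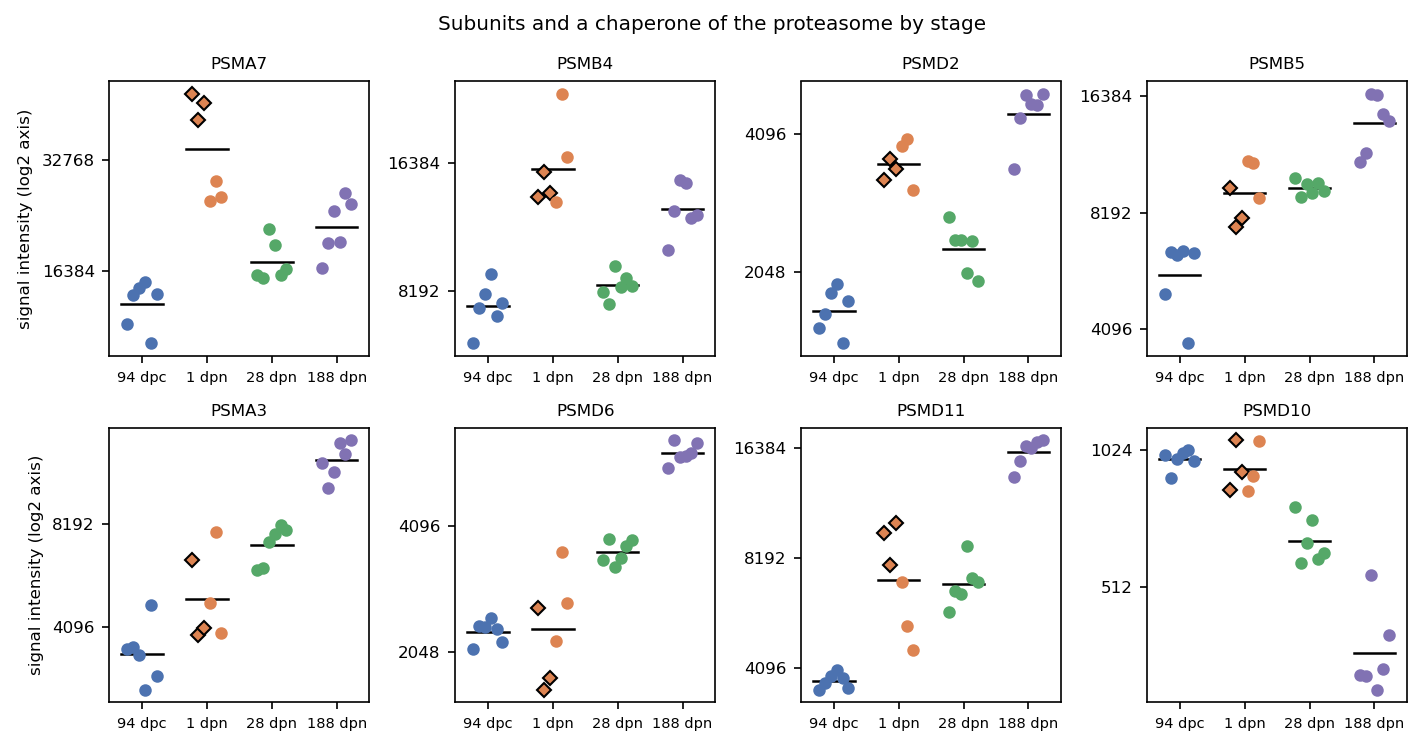
Signal of 8 proteasome genes in each animal by stage (log2 axis, bars are geometric means, n = 6 per stage, diamonds mark the 3 low-5′ arrays of 1 dpn). PSMA7, PSMB4 and PSMD2 are higher at 1 dpn than at 94 dpc and lower again at 28 dpn, PSMA3, PSMD6 and PSMD11 are highest at 188 dpn, and PSMD10 is lowest there.

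Of the 5 ATPases PSMC2 and PSMC3 were called higher at 1 dpn than at 94 dpc. At 1 dpn the ATPases' median difference was 0.23, beside 0.91 for the beta subunits and 0.53 for the alpha subunits, and the difference between these classes was not tested. PSMC3, the brightest ATPase, had signals of 3430.5 to 5891 (median 5476) at 94 dpc, 4927 to 8954 (median 7369) at 1 dpn, 3759 to 4776 (median 4411) at 28 dpn and 5064 to 8101 (median 7323) at 188 dpn, so that 1 dpn and 188 dpn each overlapped 94 dpc, while 28 dpn lay below all of 1 dpn and of 188 dpn. It was 0.46 ± 0.17 (adjusted p = 0.0463) at 1 dpn against 94 dpc, -0.65 ± 0.17 (adjusted p = 0.0093) at 28 dpn against 1 dpn and 0.64 ± 0.17 (adjusted p = 0.0138) at 188 dpn against 28 dpn. The first of these missed the threshold without any 1 of 1 dpn animals 1, 4, 5 and 6 or 94 dpc animals 1, 2 and 5 (0.35 to 0.48 in log2). PSMC3 was 0.45 ± 0.17 (adjusted p = 0.0411) at 188 dpn against 94 dpc, and it missed the threshold without any 1 of 188 dpn animals 2, 3, 5 and 6 or 94 dpc animals 1, 2 and 5 (0.34 to 0.47 in log2).

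PSMC2 rose with age by 1.28 ± 0.14 (adjusted p = 1.48e-07) at 188 dpn against 94 dpc, and most of this lay at 188 dpn against 28 dpn (0.81, adjusted p = 0.000357). At 1 dpn it was 0.50 ± 0.14 (adjusted p = 0.00926) higher than at 94 dpc, and without the low-5′ arrays 0.40 (adjusted p = 0.0909), with adjusted p of 0.000405 to 0.43 over the 26 settings. Its 2 other probe sets gave 0.46 (adjusted p = 0.0202) and -0.53 (adjusted p = 0.043) for the same step, so the probe sets disagree in sign there. The probe set with the negative value read 738, 537 and 724 in the low-5′ arrays. It read 1212, 1326 and 1261 in animals 4, 5 and 6 of 1 dpn, and 1162 to 1415 at 94 dpc. Over the span the 2 other probe sets gave 0.84 and 0.49, the second not past the threshold. PSMC1 and PSMC5 were higher at 188 dpn than at 94 dpc by 0.72 and 0.83 in log2, and neither passed at 1 dpn. The low-5′ arrays read 1875, 2207 and 1516 for PSMC1, against 4131, 3878 and 3253 in animals 4, 5 and 6 of 1 dpn. Without them PSMC1 was 0.74 (adjusted p = 0.00269) at 1 dpn against 94 dpc, with adjusted p of 0.00269 to 0.767 over the 26 settings. PSMC6 passed in no comparison, with 0.49 ± 0.24 (95% interval -0.01 to 0.99) over the whole span.

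Of the 10 non-ATPase subunits, PSMD6 alone was not called higher at 1 dpn than at 94 dpc. PSMD2, a large scaffold subunit at the base of the 19S particle, read 1429.5 to 1924 (median 1715) at 94 dpc, 3094 to 3995 (median 3535) at 1 dpn, 1954 to 2706 (median 2398) at 28 dpn and 3446 to 5022 (median 4769.6) at 188 dpn. Its stages 94 dpc and 28 dpn lay wholly below 1 dpn and 188 dpn. The differences were 1.07 ± 0.13 (adjusted p = 2.19e-06) at 1 dpn, -0.62 ± 0.13 (adjusted p = 0.00164) at 28 dpn and 0.98 ± 0.13 (adjusted p = 2.19e-05) at 188 dpn, each against the stage before. PSMD1, its partner in the base, rose by 0.85 ± 0.14 (adjusted p = 8.42e-05) at 1 dpn and by 1.26 over the whole span. Its second probe set gave 0.34 (adjusted p = 0.164) at 1 dpn and 1.35 (adjusted p = 1.85e-06) over the span.

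Subunits that handle ubiquitin rose too. PSMD4, a ubiquitin receptor, was 0.96 ± 0.14 (adjusted p = 2.16e-05) higher at 1 dpn than at 94 dpc, with 3839 to 6645 (median 5092) at 1 dpn and 2172 to 3084 (median 2606) at 94 dpc and no overlap. At 188 dpn it was 0.42 ± 0.14 (adjusted p = 0.047) against 28 dpn, a call that was lost without any 1 of 188 dpn animals 2, 3, 4, 5 and 6 or 28 dpn animals 1, 2, 3, 4, 5 and 6 (0.39 to 0.44 in log2). PSMD14, the enzyme that cuts ubiquitin chains off the substrate, was 1.04 ± 0.23 (adjusted p = 0.00137) higher at 1 dpn and 1.13 higher at 188 dpn than at 94 dpc. At 1 dpn PSMD14 ranged widely, 1404 to 5006 (median 2509) at 1 dpn, and it overlapped with 749 to 1602 (median 1313) at 94 dpc.

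Lid subunits split in their timing. PSMD3 and PSMD13 rose at 1 dpn by 0.99 ± 0.16 and 0.90 ± 0.15 in log2 (adjusted p = 5.01e-05 and 7.12e-05), and both were lower at 28 dpn, with differences of -0.83 ± 0.16 and -0.67 ± 0.15 (adjusted p = 0.000684 and 0.0022). PSMD3 signals were 1054 to 1556 (median 1269.9) at 94 dpc, 1962 to 3968 (median 2540.3) at 1 dpn, 1253 to 1765 (median 1455) at 28 dpn and 1725 to 2368 (median 2190.2) at 188 dpn, and those of PSMD13 were 2005 to 3564 (median 3033) at 94 dpc, 4651 to 6615 (median 5406) at 1 dpn, 2855 to 3987 (median 3378) at 28 dpn and 3337 to 4376 (median 3943) at 188 dpn. In both genes every animal of 1 dpn lay above every animal of 94 dpc and 28 dpn. Over the span PSMD13 gained 0.41 ± 0.15 (adjusted p = 0.0306), which missed the threshold without any 1 of 188 dpn animals 3, 4 and 5 or 94 dpc animals 1 and 5 (0.30 to 0.39 in log2). PSMD8 and PSMD12 rose at 1 dpn by 0.77 ± 0.19 and 0.88 ± 0.16 and did not pass at 28 dpn against 1 dpn. Without the low-5′ arrays PSMD8 was called lower at 28 dpn than at 1 dpn (-0.54, adjusted p = 0.041), with adjusted p of 0.041 to 0.935 over the 26 settings.

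PSMD6 kept to a later course. It read 2080 to 2472 (median 2336) at 94 dpc, 1661 to 3549 (median 2394) at 1 dpn, 3265 to 3814 (median 3554) at 28 dpn and 5648 to 6561 (median 6062) at 188 dpn, so that 188 dpn lay above all other animals while 94 dpc and 1 dpn overlapped. At 1 dpn the difference was 0.03 ± 0.15 (95% interval -0.28 to 0.34), at 28 dpn it was 0.61 ± 0.15 (adjusted p = 0.00524) and at 188 dpn 0.78 ± 0.15 (adjusted p = 0.000918). The step at 28 dpn was 0.37 (adjusted p = 0.0884) without the low-5′ arrays, with adjusted p of 0.000375 to 0.0884 over the 26 settings.

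PSMD11, a lid scaffold and the brightest non-ATPase subunit, had the largest rise of the 37 genes over the whole span. Its brightest probe set read 3566 to 4032 (median 3792) at 94 dpc, 4578 to 10256 (median 7431) at 1 dpn, 5848 to 8839.9 (median 6859) at 28 dpn and 13696 to 17213 (median 16507) at 188 dpn. The animals of 188 dpn lay above every other animal, and all of 1 dpn lay above all of 94 dpc. The difference was 0.92 ± 0.17 (adjusted p = 0.000245) at 1 dpn against 94 dpc, -0.03 ± 0.17 (95% interval -0.38 to 0.31) at 28 dpn against 1 dpn, 1.20 ± 0.17 (adjusted p = 4.31e-05) at 188 dpn against 28 dpn and 2.08 ± 0.17 (adjusted p = 1.64e-09) over the span.

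The 3 probe sets of PSMD11 shared the rise by 188 dpn and disagreed at 1 dpn. The second probe set read 180, 243 and 210.5 in the low-5′ animals 1, 2 and 3 of 1 dpn and 1660.3, 1577 and 1583 in animals 4, 5 and 6, against 1238 to 1526 at 94 dpc. It gave -1.23 ± 0.46 (adjusted p = 0.0455) at 1 dpn against 94 dpc and 2.17 ± 0.46 (adjusted p = 0.00169) at 28 dpn against 1 dpn. The dimmest of the 3 gave -0.25 and 0.98 for these steps, with adjusted p of 0.61 and 0.0358. Over the whole span the second and the dimmest gave 2.38 and 1.81. The rise of PSMD11 at 1 dpn thus rests on its brightest probe set. In that probe set the low-5′ arrays held the 3 highest values of 1 dpn (9597, 7832 and 10256, against 7030, 5336 and 4578 in animals 4, 5 and 6).

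**Figure D4:**
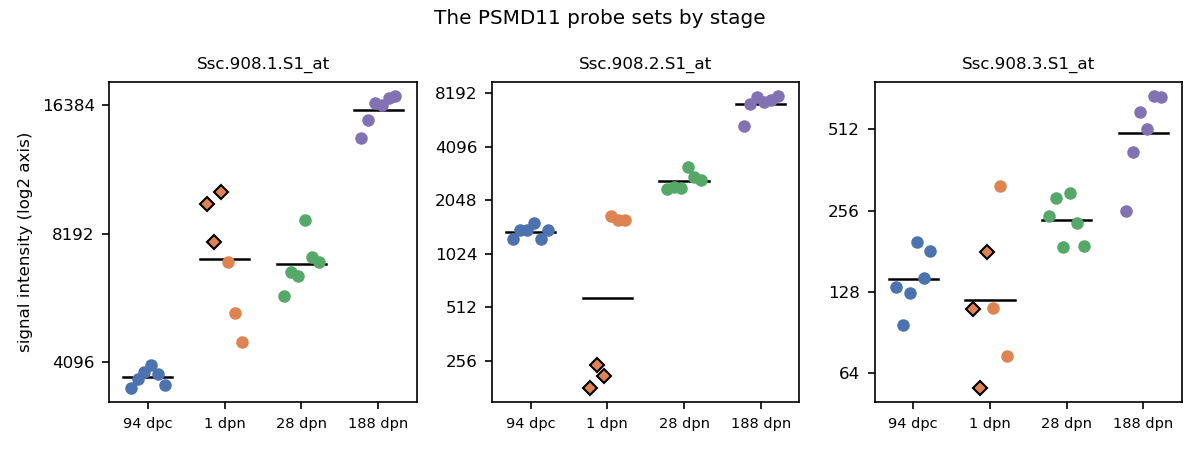
Signal of the 3 PSMD11 probe sets in each animal by stage (log2 axis, bars are geometric means, n = 6 per stage, diamonds mark the 3 low-5′ arrays of 1 dpn). In the second probe set those arrays read 180, 243 and 210.5, below all other animals, and in all 3 probe sets the mean is highest at 188 dpn.

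The activators went separate ways. PSME4, a single-chain cap known in mouse for its role in the testis, read 465 to 634 (median 586) at 94 dpc, 324 to 626 (median 457) at 1 dpn, 642 to 1045 (median 908) at 28 dpn and 1522 to 3057 (median 2381) at 188 dpn. The animals of 188 dpn lay above all others and those of 28 dpn above all of 94 dpc and 1 dpn, while 1 dpn and 94 dpc overlapped. It was -0.37 ± 0.20 (95% interval -0.78 to 0.03) at 1 dpn against 94 dpc, 0.96 ± 0.20 (adjusted p = 0.00127) at 28 dpn against 1 dpn and 1.38 ± 0.20 (adjusted p = 4.53e-05) at 188 dpn against 28 dpn, adding to 1.96 ± 0.20 (adjusted p = 3.42e-08) over the span. The step at 28 dpn was 0.86 (adjusted p = 0.0232) without the low-5′ arrays, with adjusted p of 0.00029 to 0.0232 over the 26 settings.

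PSME3, which forms a cap found mainly in the nucleus, rose at 1 dpn by 1.05 ± 0.20 (adjusted p = 0.000298). Its signals were 295 to 383 (median 365) at 94 dpc, 419 to 1191 (median 683) at 1 dpn, 652 to 926 (median 753) at 28 dpn and 895 to 1282 (median 1071) at 188 dpn, and every later animal lay above every animal of 94 dpc. The difference was 0.49 ± 0.20 (95% interval 0.08 to 0.90) at 188 dpn against 28 dpn and 1.60 ± 0.20 (adjusted p = 7.6e-07) over the span. The first of these was not past the threshold, with adjusted p of 0.017 to 0.19 over the 26 settings.

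PSME1 and PSME2 together form the interferon-inducible cap. PSME1, the brightest activator, read 2228 to 5908 (median 2467) at 94 dpc, 866 to 4088 (median 1594) at 1 dpn, 2625 to 3275 (median 3105) at 28 dpn and 1431 to 2485 (median 1783) at 188 dpn, and PSME2 read 1357 to 4205 (median 1634) at 94 dpc, 819 to 2848 (median 1337) at 1 dpn, 1379 to 2650.3 (median 1681) at 28 dpn and 786 to 1089.5 (median 994) at 188 dpn. In both genes animal 5 of 94 dpc was the highest of all 24 arrays, at 5908 and 4205. PSME1 was -0.79 ± 0.31 (95% interval -1.42 to -0.16, adjusted p = 0.053) at 1 dpn against 94 dpc, and it passed in 7 of the 26 settings, among them quantile normalization at -0.98 (adjusted p = 0.0247) and the fits without 1 dpn animal 5 (-0.90) or 6 (-1.05), with adjusted p of 0.00462 to 0.854 over the 26 settings. At 188 dpn against 94 dpc it was -0.65 ± 0.31 (95% interval -1.28 to -0.01, adjusted p = 0.0985), and it passed after quantile normalization, at -0.85 (adjusted p = 0.0426), and without the low-5′ arrays, at -0.65 (adjusted p = 0.0279), with adjusted p of 0.0279 to 0.799 over the 26 settings. At 28 dpn against 1 dpn it was 0.87 ± 0.31 (adjusted p = 0.0478), and it missed the threshold without any 1 of 28 dpn animals 1, 2, 3, 4, 5 and 6 or 1 dpn animals 1, 2 and 3 (0.68 to 0.91 in log2). It also missed it after quantile normalization, at 0.87 (adjusted p = 0.0575), and after centring, at 0.81 (adjusted p = 0.059). Without all 3 low-5′ arrays that value was 0.17 (adjusted p = 0.773), with adjusted p of 0.00456 to 0.773 over the 26 settings. PSME2 was lower at 188 dpn than at 94 dpc, by limma -0.92 ± 0.29 (adjusted p = 0.0142), and all 6 animals of 188 dpn lay below all 6 of 94 dpc. It missed the threshold after centring, at -0.39 (adjusted p = 0.31), and without the plasma-protein arrays, at -0.90 (adjusted p = 0.0774), with adjusted p of 0.00474 to 0.31 over the 26 settings. For PSME2 at 188 dpn against 28 dpn the difference was -0.85 ± 0.29 (95% interval -1.45 to -0.24). This was not past the threshold of the adjusted p, which ran at 0.00508 to 0.215 over the 26 settings.

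The 2 immunoproteasome subunits on the array, which replace active beta subunits in immune cells and under interferon, were read for comparison. PSMB10 was 0.94 ± 0.24 (adjusted p = 0.00437) higher at 1 dpn than at 94 dpc and lower at 28 dpn than at 1 dpn (-0.79, adjusted p = 0.0214), with signals of 532 to 1095 (median 714) at 94 dpc, 872 to 2092 (median 1591) at 1 dpn, 695 to 1280.4 (median 726) at 28 dpn and 427 to 737 (median 529) at 188 dpn. PSMB8 passed in none of the 4 comparisons, and its signals were 146 to 2165 (median 255) at 94 dpc, 197 to 537 (median 396) at 1 dpn, 275 to 784 (median 565) at 28 dpn and 163 to 405 (median 346) at 188 dpn. Animal 5 of 94 dpc had the highest PSMB8 of all arrays, 2165, and the highest signal of the interferon-induced gene ISG15, 10752. The muscle list median in that animal was 16236, against 20857 to 25523 in the other 5 of 94 dpc. Its summed macrophage and leukocyte signal was 24930, against 2696 to 4040 in the other 5. Of 12 interferon-induced genes 2 were higher at 28 dpn than at 1 dpn (11.6% of all probe sets were) and 3 were lower at 188 dpn than at 28 dpn (10.5%). Their summed signals were 2161 to 13382 at 1 dpn, 3939 to 17813 at 28 dpn and 1803 to 2595 at 188 dpn. The part of these in the values of PSME1 and PSME2 was not tested.

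**Figure D5:**
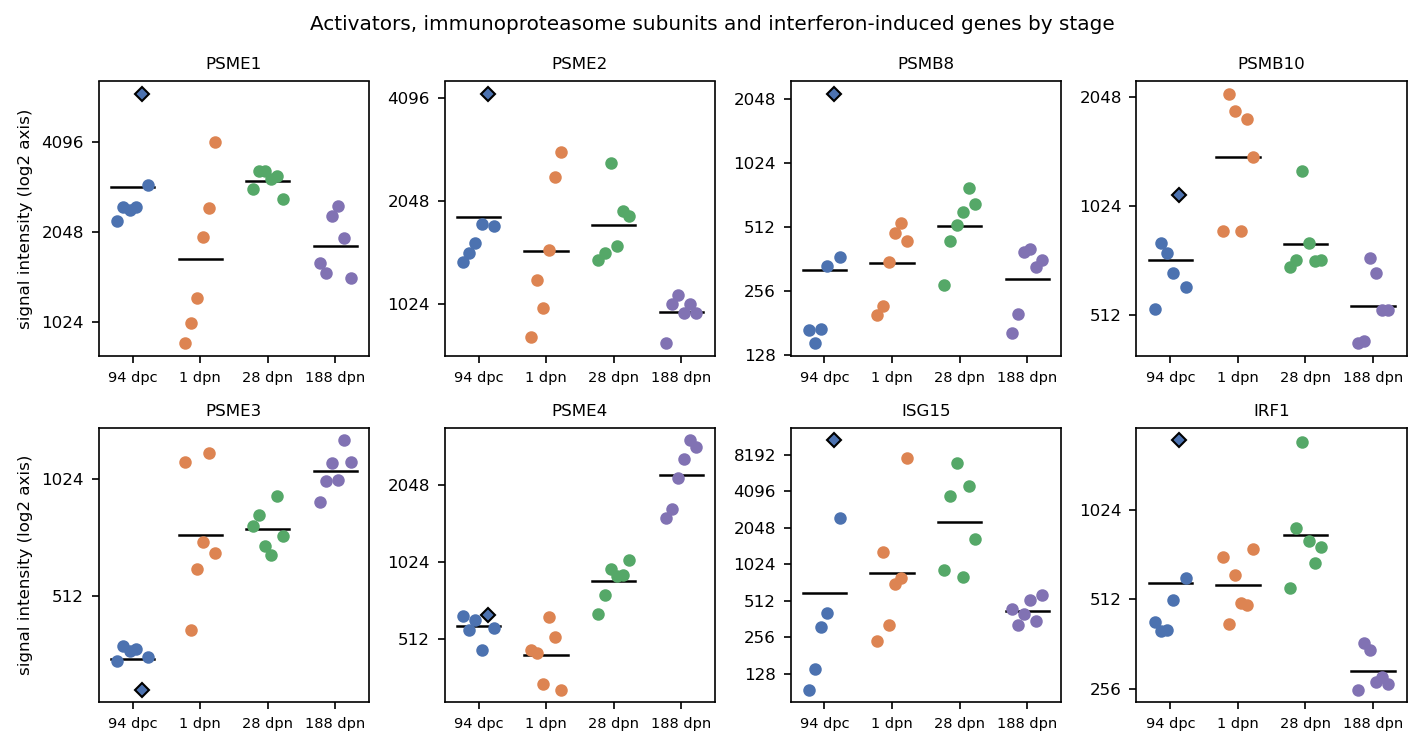
Signal of the 4 activators, the immunoproteasome subunits PSMB8 and PSMB10 and the interferon-induced genes ISG15 and IRF1 in each animal by stage (log2 axis, bars are geometric means, n = 6 per stage, diamond is 94 dpc animal 5). That animal is the highest of its stage for PSME1, PSME2, PSMB8, PSMB10, ISG15 and IRF1 and the lowest for PSME3, and PSME4 is highest at 188 dpn.

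The 4 assembly chaperones differed in direction over the whole span, with 1 higher, 1 lower and 2 not past the threshold. PSMD10 (gankyrin), which holds the ATPase PSMC4 during assembly and is not itself part of the finished particle, read 889 to 1022 (median 986) at 94 dpc, 830 to 1074 (median 907) at 1 dpn, 578 to 766 (median 625) at 28 dpn and 304 to 545 (median 333) at 188 dpn. The animals of 188 dpn lay below all others and those of 28 dpn below all of 1 dpn, while 1 dpn and 94 dpc overlapped. It was -0.07 ± 0.14 (95% interval -0.36 to 0.23) at 1 dpn against 94 dpc, -0.53 ± 0.14 (adjusted p = 0.00981) at 28 dpn against 1 dpn, -0.82 ± 0.14 (adjusted p = 0.000313) at 188 dpn against 28 dpn and -1.42 ± 0.14 (adjusted p = 3.28e-08) over the span. Without the low-5′ arrays the step at 28 dpn was -0.52 (adjusted p = 0.0504), with adjusted p of 0.00476 to 0.0504 over the 26 settings.

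PSMD5, a chaperone of the ATPase ring, was the only gene of the 37 called lower at 1 dpn than at 94 dpc. Its signals were 797 to 1036 (median 902) at 94 dpc, 342 to 952 (median 583) at 1 dpn, 940.5 to 1181 (median 1084) at 28 dpn and 821 to 1224 (median 1018) at 188 dpn, with the low-5′ animals 1 and 2 of 1 dpn lowest at 342 and 366. The difference was -0.69 ± 0.20 (adjusted p = 0.0116) at 1 dpn against 94 dpc and 0.93 ± 0.20 (adjusted p = 0.00208) at 28 dpn against 1 dpn. Without the low-5′ arrays these were -0.26 (adjusted p = 0.284) and 0.50 (adjusted p = 0.0568), and the adjusted p ran at 0.00142 to 0.284 over the 26 settings for the fall and 0.00022 to 0.0568 over the 26 settings for the rise.

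PSMG1 and PSMG3 help to build the alpha ring. PSMG1, the brightest chaperone, read 1148 to 1460 (median 1191) at 94 dpc, 1067 to 2122 (median 1293) at 1 dpn, 1868 to 2305 (median 2174) at 28 dpn and 2374 to 2818 (median 2459.9) at 188 dpn, with all of 188 dpn above all other animals. It was 0.13 ± 0.14 (95% interval -0.17 to 0.43) at 1 dpn against 94 dpc, 0.62 ± 0.14 (adjusted p = 0.00371) at 28 dpn against 1 dpn and 1.00 ± 0.14 (adjusted p = 5.77e-06) over the span. Without the low-5′ arrays the step at 28 dpn was 0.46 (adjusted p = 0.0624), with adjusted p of 0.000159 to 0.0624 over the 26 settings. PSMG3 passed in no comparison, and over the span it was -0.19 ± 0.19 (95% interval -0.58 to 0.20).

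Other genes of the pathway were counted from lists written with earlier results of these data known, and with the deposited scaling only. Of 7 further subunits, receptors and proteasome-bound factors 2 were higher and 1 lower at 1 dpn than at 94 dpc, and 4 were higher and 1 lower at 188 dpn than at 94 dpc. Of all probe sets 10.1% were higher and 20.8% lower in the first of these comparisons, and 12.5% and 27.4% in the second. TXNL1, a thioredoxin-like protein bound to the 19S particle, was 2.07 ± 0.22 (adjusted p = 7.45e-08) over the span. ZFAND5, a zinc finger protein that stimulates the proteasome, was 2.07 ± 0.22 (adjusted p = 8.19e-08). PAAF1, a 19S assembly chaperone, fell by 1.46 in log2 over the same span (adjusted p = 2.34e-05). SEM1, a small 19S subunit named here after its values were seen, was 1.08 ± 0.17 (adjusted p = 4.34e-05) at 1 dpn, -0.52 ± 0.17 (adjusted p = 0.0302) at 28 dpn and 0.82 ± 0.17 (adjusted p = 0.00172) at 188 dpn, each against the stage before. AKIRIN2, which carries proteasomes into the nucleus in human cells, was -1.73 ± 0.39 (adjusted p = 0.00166) at 1 dpn against 94 dpc and 1.67 ± 0.39 (adjusted p = 0.00377) at 28 dpn against 1 dpn.

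Both ubiquitin genes read on the array, UBB and RPS27A, were higher at 1 dpn than at 94 dpc, by 0.53 ± 0.13 and 0.57 ± 0.13 in log2 (adjusted p = 0.00302 and 0.00158). RPS27A, which encodes ubiquitin fused to a ribosomal protein, was lower at 28 dpn than at 1 dpn (-0.78, adjusted p = 0.000184), and UBB did not pass there (95% interval -0.17 to 0.36). Of 15 ubiquitin activating and conjugating enzymes 3 were higher and 1 lower at 1 dpn than at 94 dpc, 8 higher and none lower at 28 dpn than at 1 dpn, and 1 higher and 1 lower at 188 dpn than at 28 dpn. Of all probe sets 10.1%, 11.6% and 4.12% were higher at these steps, and 20.8%, 9.1% and 10.5% lower. CDC34, a ubiquitin-conjugating enzyme, had geometric means of 3339.6 at 94 dpc, 8047 at 1 dpn, 20621 at 28 dpn and 26032 at 188 dpn, a rise of 2.96 ± 0.16 (adjusted p = 8.15e-12) over the span. UBE2B, UBE2K and UBE2D2, of the same class, rose by 1.57, 1.49 and 1.16 over the span.

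The segregase VCP, which pulls ubiquitin-tagged proteins out of complexes, was 0.99 ± 0.16 (adjusted p = 5.41e-05) at 1 dpn, -0.68 ± 0.16 (adjusted p = 0.00361) at 28 dpn and 0.66 ± 0.16 (adjusted p = 0.00572) at 188 dpn, each against the stage before. Of the 7 shuttle and VCP-complex genes, 3 were higher and 2 lower at 188 dpn than at 94 dpc, beside 12.5% and 27.4% of all probe sets. FAF2, a VCP cofactor, was -1.35 ± 0.18 (adjusted p = 2e-06) at 188 dpn against 94 dpc. DERL1, a channel protein of endoplasmic reticulum quality control, was -0.76 ± 0.19 (adjusted p = 0.00691) and NSFL1C (p47), a VCP cofactor, 0.74 ± 0.20 (adjusted p = 0.0134) at 188 dpn against 28 dpn. Of 3 regulators of proteasome genes, FOXO1, a transcription factor that drives muscle ligase genes in mouse, was 0.71 ± 0.23 (adjusted p = 0.0401) at 188 dpn against 28 dpn. FOXO3, of the same family, was 1.72 ± 0.60 (adjusted p = 0.0466) at 28 dpn against 1 dpn at low signals, 64.4 to 143 (median 113) at 28 dpn and 12.8 to 109.6 (median 27.6) at 1 dpn, and the animals overlapped.

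Of 8 ubiquitin ligases known from muscle 5 were higher and 2 lower at 188 dpn than at 94 dpc, beside 12.5% and 27.4% of all probe sets. FBXO32 (atrogin-1), the ligase subunit known for its rise in muscle wasting, had geometric means of 643 at 94 dpc, 821 at 1 dpn, 611 at 28 dpn and 6839 at 188 dpn. It was 3.49 ± 0.44 (adjusted p = 1.12e-05) at 188 dpn against 28 dpn, and its signals were 3733 to 9739.6 (median 7612) at 188 dpn and 511 to 703 (median 616) at 28 dpn. ASB11 and ASB8, substrate receptors of ligase complexes, rose by 3.40 and 1.50 over the span. TRAF6, a ligase of immune signalling, was -1.90 ± 0.65 (adjusted p = 0.0306) at 1 dpn against 94 dpc, with low signals that overlapped, 4.64 to 85.2 (median 49.1) at 1 dpn and 50.5 to 146 (median 122) at 94 dpc. The low-5′ arrays held its 3 lowest values at 1 dpn (37.1, 7.10 and 4.64).

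As other multi-subunit machines, the chaperonin CCT and the COP9 signalosome with eIF3 were counted beside the proteasome. Of 6 CCT subunits limma called none higher or lower at 1 dpn, 28 dpn or 188 dpn against the stage before. At an unadjusted p under 0.05, 1 was higher and 2 were lower at 28 dpn than at 1 dpn and none differed at the other steps. Over the whole span CCT6A (0.81) and CCT4 (0.48) were called higher and CCT2 (-0.60) lower, with a median of 0.11 over the 6. Of 16 COP9 and eIF3 subunits, which share folds with the 19S lid, 4 were higher and 3 lower at 1 dpn than at 94 dpc, and 7 higher and 2 lower at 188 dpn than at 94 dpc, with medians of 0.02 and 0.44. Of all probe sets 10.1% were higher and 20.8% lower at 1 dpn, and 12.5% and 27.4% at 188 dpn, each against 94 dpc. The COP9 subunits COPS2, COPS4, COPS8 and COPS5 rose by 1.82, 1.54, 1.50 and 1.46 over the span. The difference between these lists and the proteasome genes was not tested.

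Likeness among the 37 genes was described by Pearson's r over the 24 arrays, which fall into 4 stages, so that r follows the stage means. Against the mean of the other genes, PSMD10 had r = -0.690, PSME2 r = -0.374 and PSME1 r = -0.295, the 3 lowest values. The 5 genes outside the list with the highest r to the mean of the 37 were MRPL48 (0.931), LOC100515118 (0.923), FHOD1 (0.922), METAP1 (0.914) and EIF4G1 (0.911).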

How the data were processed

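The authors deposited a signal intensity on a linear scale for each probe set on each array. GCOS 1.1.1 was used, per the submitters' processing notes, while how it summarised probes and scaled arrays is not given in the sources used here. Per the labels, 0.5 µg of total RNA was labelled. With 2% of probe sets trimmed at either end, array means were 498 to 499, so the deposited arrays had been scaled to a like mean. The file holds 24118 probe sets, of which 183 controls were left out and 23935 were tested without a filter on low values and as log2 without an added constant. Background was the 95th percentile of 17 Tag control probe sets.

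Gene symbols come from the platform annotation: 1 symbol for 10069 tested probe sets, several for 198 and no symbol for 13668. All 37 proteasome genes matched the reference gene table by gene number. Symbols of these families that had no single-symbol probe set were not analysed here. No genome coordinates or sequences were used.

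Differences were fitted by lmFit and eBayes of limma 3.58.1 (R 4.3.3, reading by the data.table package, version 1.17.8) to all 24 arrays with a mean for each of the 4 stages, which left 20 residual degrees of freedom. Tests were two-sided at 0.05, Benjamini-Hochberg adjusted across every tested probe set. Differences are log2, later minus earlier stage, ± SE of the fit, and intervals are 95%. Each later stage was set against its predecessor, and 188 dpn also against 94 dpc, 4 comparisons in all. Mother, sex and array batch are not in the labels and could not enter the fit. The method was tested on simulated data. These had independent noise on each array, without shared mothers, low-5′ arrays or scaling differences, so those limits were not tested. The plots used matplotlib 3.10.9 under Python 3.11.15 with numpy 2.4.6 and pandas 2.3.3.

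The members, the lists and the tests were chosen with earlier results of these data known. Animal values were given for up to 4 largest rises and 4 largest falls per comparison past the threshold, the brightest gene of each role and PSMB5, PSMB6 and PSMB7. For other lists up to 4 genes past the threshold and the immunoproteasome genes were named. Alternatives were quantile normalization, centring on the median, 16 or 64 added, no dimmest 30%, other probe sets of a gene, only the stages compared, trend and robust eBayes, array weights, an adjusted p of 0.01, each animal left out, and fits without the 3 low-5′ arrays of 1 dpn or the 3 plasma-protein arrays of 188 dpn.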

Additional observations from a re-analysis of the deposited data

Results flagged for a closer look

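Of 148 groups of 6 animals (37 genes in 4 stages), 13 held an animal far from the other 5, where chance alone gives about 1 in 20 independent groups. The 37 genes share the same arrays, so the groups are not independent and an excess over that rate cannot be read from them. None of the 13 was weighed further.

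At 94 dpc, animal 5 stood apart in 3 genes: PSME1 at 5908 and PSME2 at 4205 were far above the other animals, whose highest values were 2931 and 1755, and PSME3 at 295 was far below the next, 350.1. PSMC6 at 94 dpc was 1024 in animal 4, against 2113 in the next lowest.

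At 1 dpn, animal 5 was far above the others in PSMA2 (18403, next 9022) and PSMD12 (1349, next 977). At 28 dpn, PSMB2 was 7653 in animal 3 (next 6072), and PSMC1 was 2071 in animal 2, below the next at 2768.

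At 188 dpn, animal 1 was far below the others in 4 non-ATPase subunits: PSMD2 at 3446 (next 4448), PSMD3 at 1725 (next 2134), PSMD4 at 5313 (next 6648) and PSMD8 at 6371 (next 8430.5). The same array had the highest ALB signal of all, 56933, and the part of this was not tested. PSMG1 was 2818 in animal 2, above the next at 2514.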

How the results depend on the processing

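Numbers of genes are given as higher or lower in the later stage. The share of all probe sets called is given in this report only for the deposited scaling, quantile normalization and centring. Counts from other settings stand without it, so a change in them may not be particular to these genes. At 1 dpn against 94 dpc the median difference of the genes was 0.32 after quantile normalization and 1.03 after centring on the array median. At 188 dpn against 94 dpc it was 0.55 after quantile normalization, 1.52 after centring, and 0.87 with either the mean or the dimmest of a gene's probe sets. Centring gave 0.70 at 188 dpn against 28 dpn. The fit without the low-5′ arrays gave -0.27 at 28 dpn against 1 dpn. At 188 dpn against 28 dpn, 28 genes were higher after centring (8.67% of all tested probe sets were), 22 with only the 2 stages fitted and 9 at an adjusted p of 0.01. At 28 dpn against 1 dpn, 2 were higher with only the 2 stages fitted and 1 without the low-5′ arrays. At 1 dpn against 94 dpc, 0 were lower after centring, with only the 2 stages, at 0.01 and without the low-5′ arrays, and 2 with 16 or 64 added, without the dimmest 30%, with trend and robust eBayes and with the dimmest probe set. At 188 dpn against 28 dpn, 2 were lower with 16 or 64 added, without the dimmest 30% and with trend and robust eBayes, and 3 with only the 2 stages, with array weights and without the low-5′ arrays. At 188 dpn against 94 dpc, 1 was lower after centring, at 0.01 and without the plasma-protein arrays. The count of genes that differed over the stages was not moved by over 1.5 times in any setting run. Leaving out each animal in turn gave 20 to 23, 4 to 7, 12 to 15 and 27 to 30 higher in the order of the comparisons, and 1 to 2, 10, 1 and 2 lower. The medians then ran at 0.60 to 0.76, -0.08 to 0.01, 0.40 to 0.47 and 0.94 to 1.01, and 31 to 34 genes differed over the stages. Signs turned for PSMD11 at 1 dpn against 94 dpc, at -0.19 with the mean of its probe sets and -0.25 with the dimmest. PSMD11 was 1.04 and 0.98 at 28 dpn against 1 dpn in these settings, and PSMC2 was -0.53 at 1 dpn against 94 dpc with its dimmest probe set. The cause of these changes was not tested. No paired analysis was possible because the animal numbers are accession order and pair nothing. Limits are 6 arrays per stage, unlabelled shared mothers, a tissue label that the markers do not bear out, and 1 diet. All 37 genes lay above background on every array.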
